A study of Gallus gallus with 100 samples.

Results

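The genes described here code for collagens, laminins, matrilins, glypicans and 8 other proteins of the extracellular matrix, and they were followed in chicken pituitary glands over 6 ages and under heat stress. They were chosen by symbol alone, as every gene named COL, number, A, number, every LAMA, LAMB, LAMC, MATN or GPC gene with a number, and FN1, DCN, LUM, SPARC, VCAN, ACAN, NID1 and NID2. Of the 18685 genes listed in at least 1 table, 66 met this rule, and 58 of them were listed in all 6 tables. There were 38 collagens, 11 laminins, 5 glypicans, 4 matrilins and the 8 single genes, and BGN was not analysed here. The rule itself uses no measured value. COL1A1 and COL2A1 were listed at day 32 only and COL23A1 at day 42 only. COL4A3, COL7A1, GPC5, LAMC1 and LAMC3 were missing from at least 1 of the tables, and every other gene of the rule was followed through all days.

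Collagens are proteins of coiled chains, and each gene codes for a chain. Fibrillar collagens such as COL1A2 and COL3A1 make the fibres of connective tissue, fibril-associated collagens such as COL9A3 sit on these fibres, and type IV collagens form the sheet of the basement membrane together with laminins and nidogens. Basement membranes surround blood vessels and separate epithelial cords from connective tissue, in the pituitary gland as elsewhere. Proteoglycans (ACAN, VCAN, DCN, LUM) fill and space the fibres, and glypicans are heparan sulfate proteoglycans tied to the cell surface that modulate growth factor signalling.

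RNA-seq was performed on whole pituitary glands of male Ross 708 broilers, a line of meat chickens, with 1 stranded library per bird. Control birds stayed in a house at 25 °C and were sampled at day 21 (15 libraries), day 22 (10), day 26 (6), day 32 (6), day 40 (5) and day 42 (10). Heat-stressed birds lived in a house that was warmed to 35 to 37 °C for 8 hours a day from day 21 on, and were sampled at day 22 (13 libraries, after 8 hours), day 26 (5, at 2 hours), day 32 (6, at 4 hours), day 40 (5) and day 42 (17). No other treatment or genotype is given by the labels for any of these groups. Day 40 stands in the labels, with the word Week for both of its groups, but not in the protocol. Whether its heat-stressed birds followed the schedule from day 21 on is therefore not given. Each heat group came from 1 house and its controls from another, so house and temperature cannot be told apart. Values are FPKM, the fragments of a gene divided by its length and by the mapped fragments of its library, deposited as 1 table per day. Read totals were not analysed, and no counting interval is given. Relative to the deepest library of its table, a library had a depth of 0.406 to 1 at days 21 to 40 and 0.0508 to 1 at day 42 (at most 0.319 in all but the deepest), as read from the steps in which low FPKM values fall. This depth was not checked against read totals, and the study reports a narrower span of reads for the libraries it describes.

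The labelled tissue was checked against its markers. In control libraries of days 21 to 40, the 7 anterior lobe markers listed in every table (GH, PRL, CGA, POMC, POU1F1, LHX3 and PITX1) summed to between 2.05 and 1683 FPKM, against 84938 to 211806 FPKM at day 42. The anterior lobe transcripts, the defining markers of the labelled gland, were thus far lower at days 21 to 40 than at day 42. They were not absent, with medians of the sum from 21.0 FPKM (day 22) to 129 FPKM (day 32) in these controls. The highest sum before day 42 came from a control of day 32. Whether the same tissue was sampled at all ages was not tested, and a difference in the tissue taken cannot be told apart from a difference in age in any comparison with day 42. Fewer cells of a type and less RNA per cell cannot be told apart in such bulk samples. The sum of 5 fibroblast markers (PDGFRA, TBX18, FOXC1, FOXC2 and ALDH1A2) was 28.7 to 76.6 FPKM in controls of day 22 and 4.32 to 14.3 FPKM in those of day 42. The library numbers in the labels fall into 4 ranges, below 1100, 1200 to 1400, 1400 to 1500, and 1500 and above. Controls of day 22 held 8 libraries of the highest range and 2 numbered 1400 to 1500, whereas those of day 42 held 6 numbered 1400 to 1500 and 4 below 1100. What these numbers stand for is not given by the labels. The day 40 control library 1578 stood apart by its bone transcripts, with 208 FPKM of IBSP and 867 FPKM of SPP1 against at most 0.551 and 2.86 FPKM in the other controls of that day. The day 42 control library 1012 had 6709 genes at 1 FPKM or more, against 8865 to 9481 in the other controls of day 42.

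SPARC, a collagen-binding glycoprotein, led at every day on which COL1A1 was not listed, with 1685 ± 685 FPKM (SD, n = 10) in controls of day 22 and 531 ± 171 FPKM (SD, n = 10) at day 42. At day 22 it was followed by COL1A2, DCN, COL3A1, COL9A3 and LUM, all of them genes of fibrous connective tissue or cartilage. At day 42 the order behind SPARC had changed to DCN, COL4A5, COL4A6, LAMA4 and COL3A1, so that basement membrane chains stood near the top. COL9A3 went from rank 5 of 59 listed genes at day 22 to rank 52 of 64 at day 42, and COL4A4 from rank 46 to rank 16. At the low end, COL19A1, COL6A6 and MATN1 had a mean below 0.3 FPKM in every group.

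**Figure D1:**
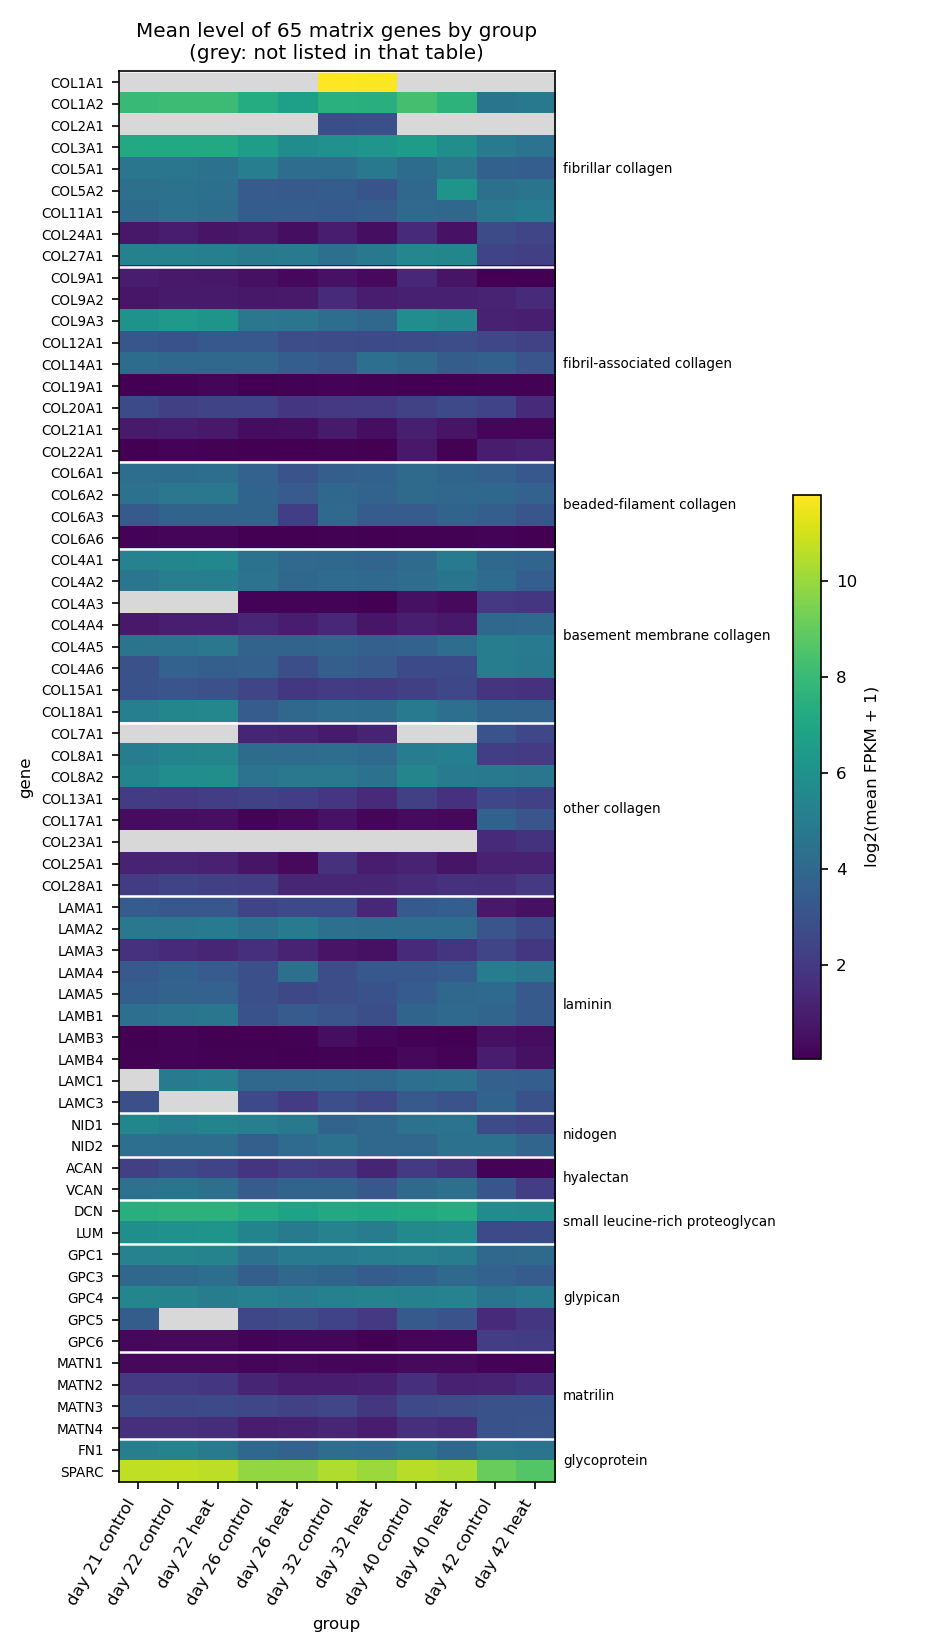
Mean level of 65 of the 66 matrix genes (rows, ordered by role) in each group (columns), as log2(mean FPKM + 1), with grey for genes not listed in a table. Among other genes, the columns of day 42 differ from the others in COL9A3, COL1A2, LUM and COL8A1, which are lower there, and in COL4A4, COL17A1 and GPC6, which are higher.

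The main comparison asked how matrix genes differed between the control glands of day 22 and those of day 42, which is the age contrast with 10 libraries on each side. At day 42, 19 matrix genes were lower and 7 were higher. The largest falls were those of COL9A3, COL1A2, LUM and COL8A1, and by role the falls included 4 fibrillar collagens, 3 basement membrane collagens, 3 laminins and 1 nidogen, whereas COL17A1, COL4A4, GPC6, COL24A1, COL4A6, MATN4 and LAMA4 rose. The test was that of limma, run on log2(FPKM + 1) values of every gene that averaged 1 FPKM or more in the 20 libraries, and a gene was called at a Benjamini-Hochberg adjusted p under 0.05 over all genes and a change of at least 2-fold. Of the 66 genes, 50 were tested, 9 lay below the minimum and 7 were not listed on both days. Lower calls made up 38% of the 50, where 20.2% of all 8301 genes tested were called lower, and higher calls made up 14%, where the background was 12.8%. The median log2 difference of the 50 genes was -0.70, beside -0.15 over all genes. The minimum was passed by 6 genes (ACAN, COL17A1, COL24A1, COL9A2, GPC6 and LAMA1) through 1 of the groups only, so that the minimum itself favoured a difference in them. Among the 44 with at least 1 FPKM in both groups, 17 were lower and 4 higher. The share of all genes called under this limit was not computed. All libraries of day 42 lay below all of day 22 in 9 matrix genes (18% of those tested, against 13.3% of all genes) and above them in 3 (6% against 5.36%). Without library 1012 the calls were again 19 lower and 7 higher, while the median over all genes went to -0.01 and that of the 50 genes to -0.58.

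The split between lower and higher calls depended on the scaling and on the range of library numbers. FPKM totals differed between the days, with a median of 263433 in controls of day 22 and 451971 in those of day 42. The 10 highest genes of a library took a median of 13.9% of its total at day 22 and 41.2% at day 42. With every library scaled to the same FPKM total (TPM), 34 of 54 tested matrix genes were lower and 5 higher. Over all genes, 40.4% were then called lower and 9.24% higher, and the rises of COL4A6, LAMA4 and MATN4 were no longer called. With every library scaled to its median gene, 17 were lower and 7 higher, where 16.1% and 16.7% of all genes were called, and the falls of COL5A1 and LAMC1 were lost. With the number range added to the model, 7 were lower (14% of those tested) and 10 higher, where 12.9% and 11.8% of all genes were called, and the median of the matrix genes was -0.04.

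**Figure D2:**
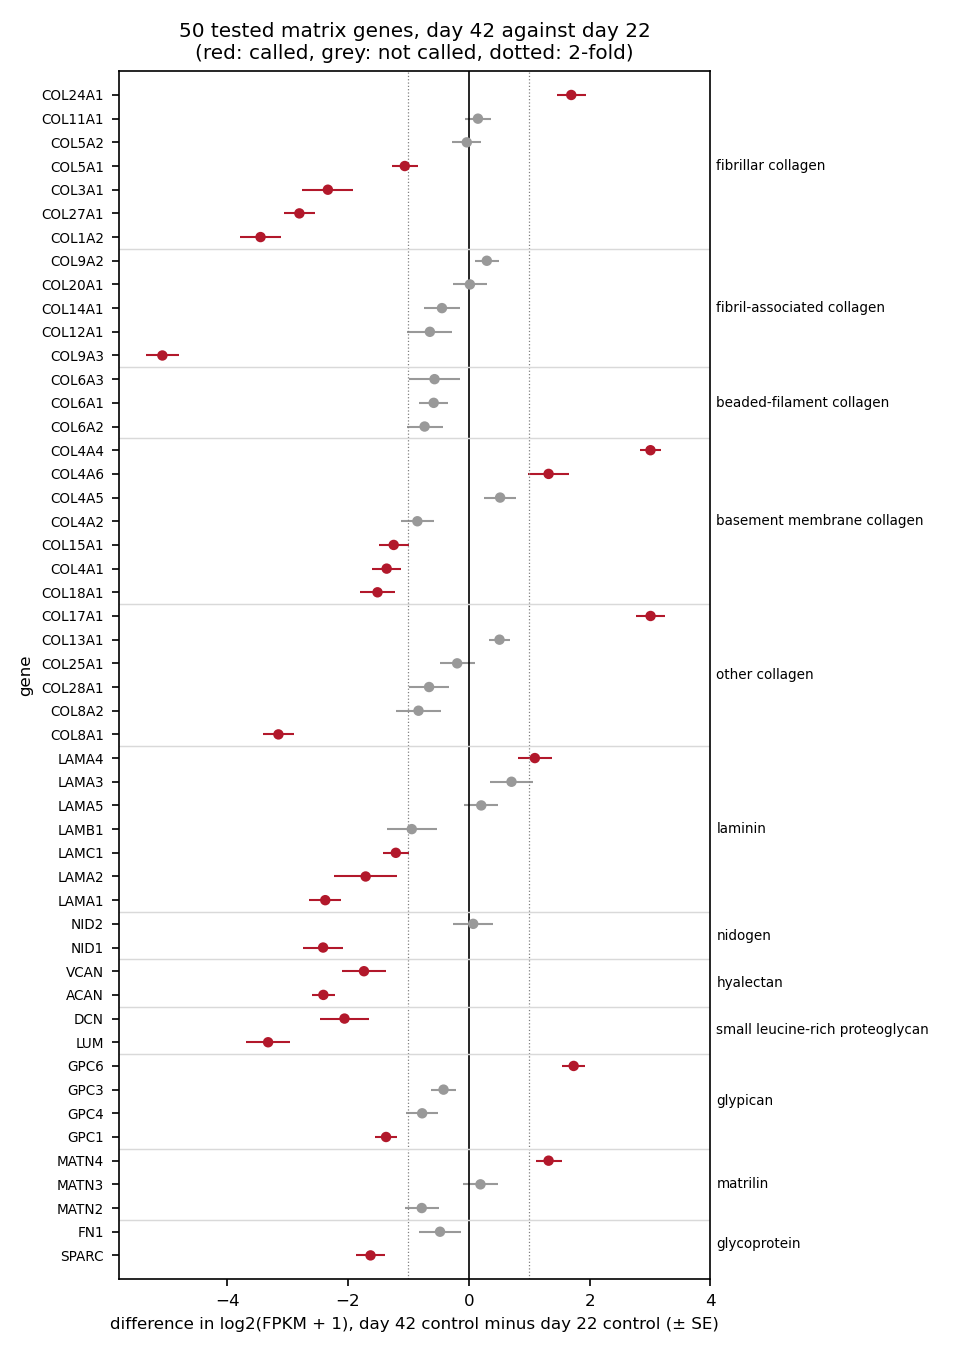
Difference in log2(FPKM + 1) between control glands of day 42 and day 22 for the 50 tested matrix genes, ordered by role, with standard errors from limma (n = 10 and 10). Red points are called, and most of them lie on the left, with COL9A3 at -5.07, while COL4A4 and COL17A1 lie farthest to the right at 3.01 and 3.01.

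Among fibrillar collagens, 4 of 7 tested genes fell, 1 rose and 2 did not pass. COL1A2 (Entrez 396243, chromosome 2, 23701844 to 23740814), a chain of type I collagen, was at 73.9 to 391 FPKM (median 321) in controls of day 22 and at 5.75 to 35.4 FPKM (median 24.3) at day 42. No library of day 42 reached the lowest of day 22, and the mean was 11.7 times lower (log2 difference -3.45 ± 0.33 SE, adjusted p = 5.67e-09). The 2 lowest libraries of day 22, at 73.9 and 84.6 FPKM, were the 2 numbered 1400 to 1500. COL3A1, which forms fibres of soft tissues together with type I collagen, went from 28.5 to 228 FPKM (median 180.3) to 5.16 to 81.4 FPKM (median 22). Its groups overlapped (-2.33, adjusted p = 5.47e-05). COL27A1 (Entrez 417231, chromosome 17, 4659894 to 4785975), a fibrillar collagen of cartilage, went from 19.1 to 67.2 FPKM (median 33.2) to 2.02 to 10.3 FPKM (median 3.45), with no overlap, a ratio of 8.35 and a log2 difference of -2.81 ± 0.26 (adjusted p = 3.19e-09). COL5A1, a chain of the collagen that starts type I fibrils, was 2.06 times lower (-1.06, adjusted p = 0.000201), and fell under the 2-fold minimum without library 1419 (-0.95) or 1552 (-0.999). The reverse was seen for COL24A1, an ancient fibrillar chain, which was at 0.361 to 2.02 FPKM (median 0.702) at day 22 and 1.25 to 11.9 FPKM (median 4.63) at day 42 (1.70, adjusted p = 2.28e-06). COL11A1 (Entrez 374046, chromosome 8, 10126392 to 10291886), a fibrillar chain of cartilage, was not called, at 20.7 ± 4.46 FPKM (SD, n = 10) and 24.5 ± 9.9 FPKM (SD, n = 10), with a log2 difference of 0.15 ± 0.22 (adjusted p = 0.585). COL5A2 was at 20.6 ± 7.03 FPKM (SD, n = 10) and 20.1 ± 6.57 FPKM (SD, n = 10), so that COL5A1 and COL5A2, chains of the same collagen, did not give the same call. The difference between these chains was not tested.

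COL1A1, the partner of COL1A2, was listed at day 32 only, over 448 bases of an unplaced part of chromosome 27 (175540 to 175987), so its level rests on a fragment of the gene. It was at 449, 2638, 3945, 4109, 5051 and 5210.4 FPKM in the 6 controls. The lowest of these values came from library 1315, which was also lowest for COL1A2 with 21.5 FPKM.

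The largest fall of any matrix gene was that of COL9A3 (Entrez 396242, chromosome 20, 8689082 to 8720874), a chain of type IX collagen, which coats the collagen fibrils of cartilage. Its levels were 29.6 to 175 FPKM (median 77.3) at day 22 and 0.711 to 2.85 FPKM (median 0.964) at day 42. Every library of day 22 was above every library of day 42, and the ratio of means was 69.2 (-5.07 ± 0.28, adjusted p = 2.35e-13). COL9A2, another chain of the same collagen, was far lower than COL9A3 at day 22, with 0.836 ± 0.595 FPKM (SD, n = 10). At day 42 the 2 chains had similar means, with 1.27 ± 0.724 FPKM (SD, n = 10) for COL9A2 and 1.19 FPKM for COL9A3. COL9A2 was not called (adjusted p = 0.224). COL9A1 lay below the minimum, with 0.126 to 1.46 FPKM (median 0.723) at day 22 and 0 to 0.255 FPKM (median 0.0236) at day 42. The locus of COL9A3 overlaps that of TCFL5, and that of COL9A1 overlaps COL19A1. Among other called genes, COL27A1 overlaps LOC101749517, COL18A1 overlaps SLC19A1 and LAMC1 overlaps MIR1655. Whether the counting used the strand is not given in the sources used here. Of the other fibril-associated collagens tested, COL12A1, COL14A1 and COL20A1 were not called.

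The matrix proteoglycans of both classes fell. Both hyalectans, which bind hyaluronan, and both small leucine-rich proteoglycans, which bind collagen fibrils, were called lower. ACAN (aggrecan, Entrez 395798, chromosome 10, 12540429 to 12583605) was at 1.36 to 8.98 FPKM (median 4.96) at day 22, and at day 42 every library was below 0.2 FPKM, with a highest value of 0.196. This gave a ratio of 51.5 and, on the log2(FPKM + 1) scale that understates low genes, a difference of -2.41 (adjusted p = 1.22e-10). VCAN (versican, Entrez 395565, chromosome Z, 62473959 to 62580840) went from 16.4 to 37.2 FPKM (median 21.7) to 0.239 to 16.3 FPKM (median 7.23), with the highest library of day 42 just below the lowest of day 22 (-1.74, adjusted p = 0.000298). LUM (lumican, Entrez 417891, chromosome 1, 43860882 to 43873083) and DCN (decorin, Entrez 417892, chromosome 1, 43892772 to 43932426) lie next to each other on chromosome 1, 19688 bases apart. LUM was at 17.4 to 103 FPKM (median 74.5) and then 0.634 to 11.3 FPKM (median 4.99), without overlap. The log2 difference was -3.32 ± 0.37 for LUM (adjusted p = 5.11e-08) and -2.06 ± 0.41 for DCN (adjusted p = 0.000159). DCN was at 73.4 to 311 FPKM (median 203) and 3.84 to 82.1 FPKM (median 57.3), and the groups overlapped only because library 993 of day 42, at 82.1 FPKM, was above library 1432 of day 22, at 73.4 FPKM. SPARC was 3.17 times lower (-1.63, adjusted p = 3.28e-06), and FN1 (fibronectin) was not called, with 38.1 ± 21.5 FPKM (SD, n = 10) and 25.5 ± 10.8 FPKM (SD, n = 10) (adjusted p = 0.25). COL8A1 (Entrez 418378, chromosome 1, 83661820 to 83748534), a short-chain collagen of vessel walls and of the membrane under corneal endothelium, went from 19.7 to 57.7 FPKM (median 45.1) to 0.914 to 5.3 FPKM (median 3.95) (-3.15, adjusted p = 2.12e-10), with no overlap. Its relative COL8A2 was not called, at 4.65 to 92 FPKM (median 60.9) and 16.3 to 46.9 FPKM (median 21.8) (adjusted p = 0.0604).

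**Figure D3:**
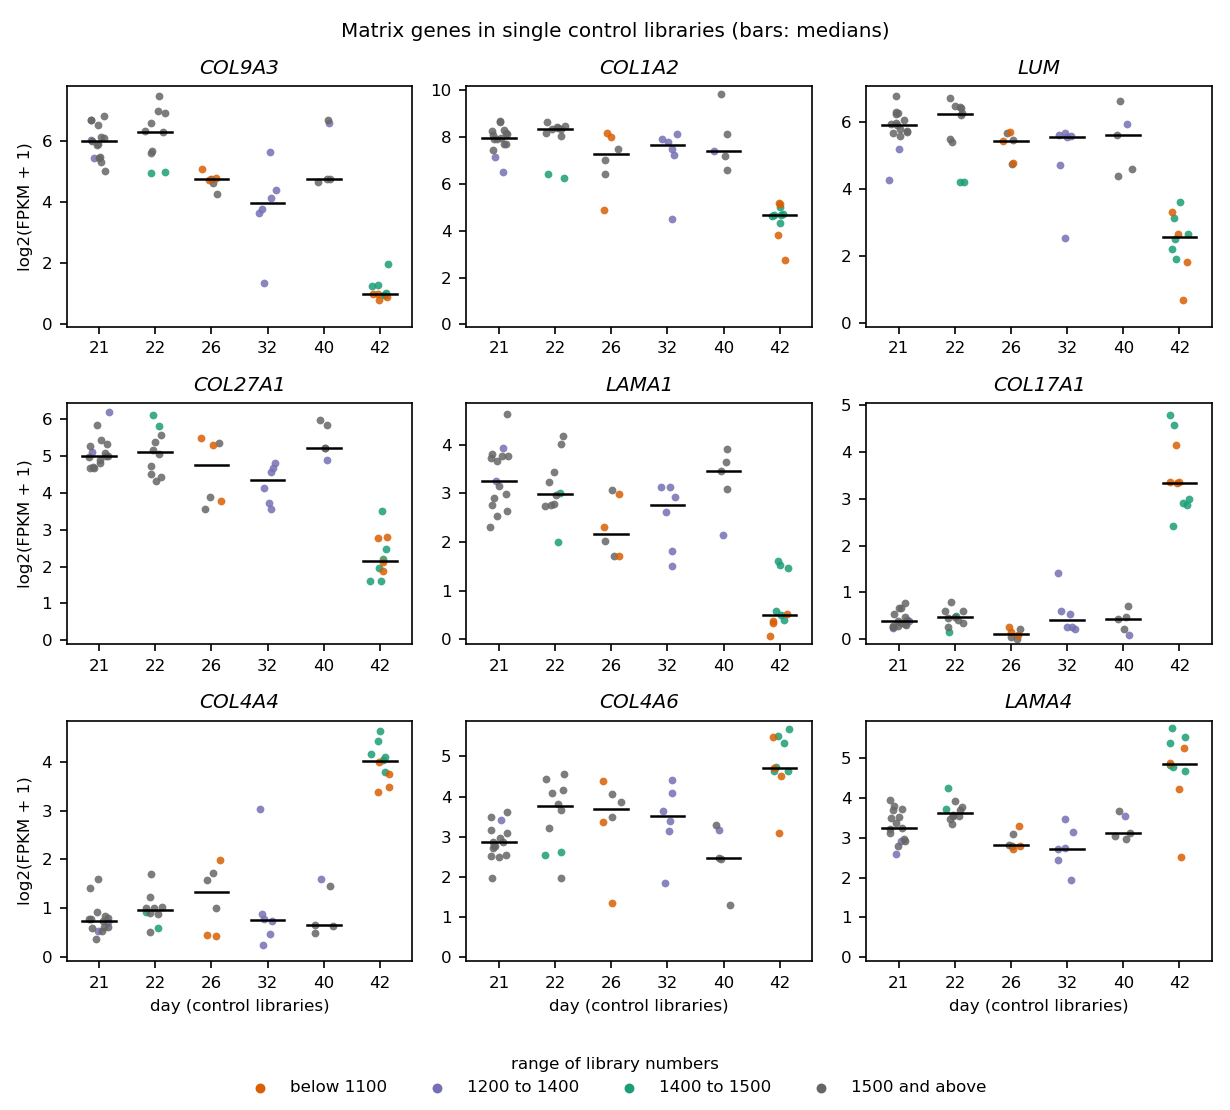
Levels of 9 matrix genes in each control library, as log2(FPKM + 1), by day, coloured by the range of library numbers, with bars at the medians. COL9A3, COL1A2, LUM, COL27A1 and LAMA1 are lowest at day 42, every library of day 42 is above all others for COL17A1 and COL4A4, and at days 21 and 22 libraries numbered 1200 to 1500 lie at the low end for COL1A2 and LUM.

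Type IV collagen chains moved in opposite directions, although the fall of COL4A1 was not called within 1 range of library numbers and the rise of COL4A6 not with TPM. The genes for its chains lie in head-to-head pairs, COL4A1 with COL4A2 on chromosome 1, COL4A3 with COL4A4 on chromosome 9 and COL4A5 with COL4A6 on chromosome 4. COL4A1 and COL4A2 make the network of nearly all basement membranes, and the chains of the other pairs are known in mammals from restricted places such as kidney glomeruli and some epithelia. COL4A1 (Entrez 395530, chromosome 1, 138134892 to 138247249) fell from 19.4 to 63.4 FPKM (median 44.5) to 6.81 to 23.4 FPKM (median 16) (-1.36, adjusted p = 5.18e-05). COL4A2, whose locus starts 383 bases from that of COL4A1, missed the 2-fold minimum (-0.85, adjusted p = 0.0118). COL4A4 (Entrez 424799, chromosome 9, 8788842 to 8852859) was at 0.426 to 2.23 FPKM (median 0.934) at day 22 and at 9.43 to 23.8 FPKM (median 15.2) at day 42. All day 42 libraries were above all of day 22, the mean was 15.1 times higher, and the log2 difference was 3.01 ± 0.18 (adjusted p = 8.37e-13). COL4A6 (Entrez 422350, chromosome 4, 13941231 to 14062775) rose 2.49 times, from 2.9 to 22.8 FPKM (median 12.5) to 7.57 to 50.0 FPKM (median 25.3) (1.32, adjusted p = 0.00232), and its groups overlapped. The locus of COL4A6 overlaps that of ATG4A. COL4A5 was at 22.1 ± 8.34 FPKM (SD, n = 10) and 31.5 ± 11.1 FPKM (SD, n = 10) and was not called (adjusted p = 0.105). COL4A3 was not listed at day 22. The other basement membrane collagens, COL15A1 and COL18A1, were both called lower, with log2 differences of -1.24 and -1.51.

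A share within a library does not move with its scaling, so the chains were also set against each other, in a measure chosen after the values were seen and given without a test. COL4A4, COL4A5 and COL4A6 together made up 27.3 to 40.6% of the FPKM of the 5 type IV chains listed on every day in controls of day 22. At day 42 they made up 58.1 to 80.5%, above every library of days 21 to 40, where the highest control of an earlier day was at 55.5% and the highest heat-stressed one at 49.4% at day 32 and 52.1% at day 26. In heat-stressed glands of day 42 the share was 63.3 to 80.7%.

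**Figure D4:**
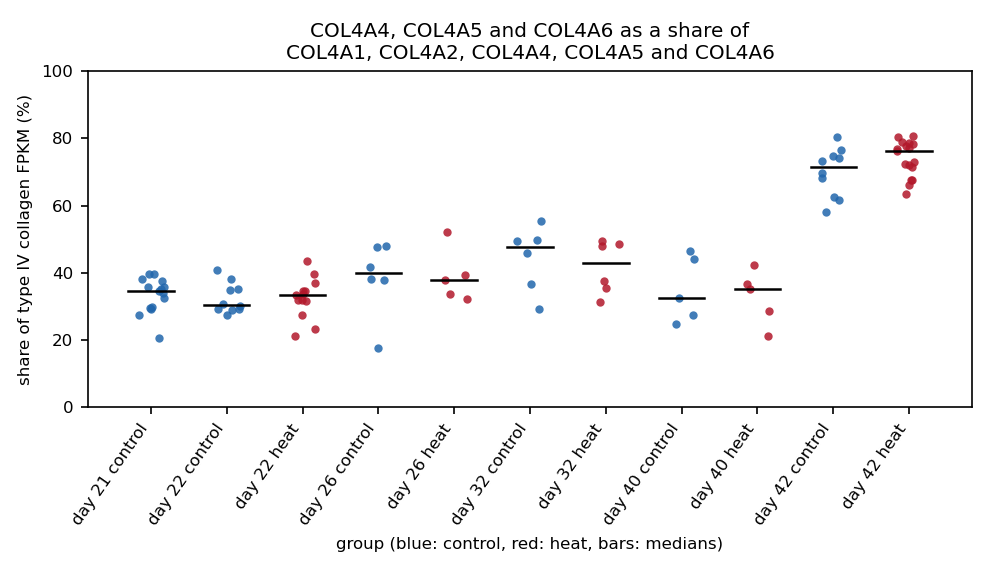
Share of COL4A4, COL4A5 and COL4A6 in the summed FPKM of COL4A1, COL4A2, COL4A4, COL4A5 and COL4A6, in percent, with a point per library and bars at the medians (blue for control, red for heat). Medians stay between 30.4 and 47.7% in the groups of days 21 to 40 and are 71.5 and 76.3% at day 42.

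Laminins, which are trimers of an alpha, a beta and a gamma chain, also shifted between chains. LAMA1 (Entrez 374016, chromosome 2, 99400389 to 99499663), the alpha chain of early basement membranes and of some brain membranes, and LAMA2, that of muscle and nerve, were called lower, with log2 differences of -2.38 and -1.71. LAMA1 was at 2.98 to 17.2 FPKM (median 6.91) at day 22 and 0.0529 to 2.04 FPKM (median 0.419) at day 42. LAMA2 was at 4.18 to 55.9 FPKM (median 15.3) at day 22 and 0.33 to 22.6 FPKM (median 5.46) at day 42, with wide overlap. Its fall was not seen among libraries numbered 1400 to 1500, where the difference was 0.07 (adjusted p = 0.958, 6 libraries against 2). LAMA4 (Entrez 421749, chromosome 3, 65122459 to 65219276), the alpha chain of vessel walls, rose from 9.06 to 18 FPKM (median 11.3) to 4.71 to 52.4 FPKM (median 27.7) (1.09, adjusted p = 0.00257), and library 1012 alone lay below the day 22 range. Without library 1419 the difference was 0.99, just under the 2-fold minimum. LAMA4 took 9.32 to 47.2% of the FPKM of LAMA1 to LAMA5 in controls of day 22 and 39.2 to 74.7% in those of day 42. These ranges overlapped, and the share also reached 44.3% in heat-stressed birds of day 26 and 56.9% in those of day 32. LAMA3 and LAMA5 were not called. Of the partner chains, LAMC1 fell (-1.21, adjusted p = 3.95e-05) and LAMB1 did not pass (-0.94, adjusted p = 0.0565). LAMB3, which pairs with LAMA3 under stratified epithelia, stayed below the minimum, with a highest value of 0.362 FPKM at day 22 and 0.857 FPKM at day 42.

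The nidogens, which link laminin to type IV collagen, did not share a call. NID1 (Entrez 395531, chromosome 3, 37178191 to 37215591) went from 12.9 to 55.9 FPKM (median 33.7) to 0.608 to 9.31 FPKM (median 5.19) (-2.41, adjusted p = 1.25e-06), without overlap. NID2 was at 18.2 ± 8.5 FPKM (SD, n = 10) and 20.3 ± 10.2 FPKM (SD, n = 10) (adjusted p = 0.874). The beaded-filament collagens COL6A1, COL6A2 and COL6A3 had log2 differences of -0.58, -0.73 and -0.57 and were not called.

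COL17A1 (Entrez 396503, chromosome 6, 23670833 to 23713208), a collagen that spans the cell membrane in the hemidesmosomes of epithelia, also rose. It was at 0.117 to 0.735 FPKM (median 0.386) at day 22 and 4.3 to 26.7 FPKM (median 9.14) at day 42, without overlap, and the mean was 30.3 times higher (3.01 ± 0.25, adjusted p = 3.16e-10). COL7A1, which forms anchoring fibrils below epithelia, was not listed at day 22. Where it was listed, its controls were at 0.477 to 3.29 FPKM (median 0.754) at day 26, 0.39 to 1.78 FPKM (median 0.706) at day 32 and 1.25 to 18.3 FPKM (median 4.31) at day 42. MATN4, a matrilin (adaptor proteins between matrix filaments), rose 3.34 times, from 0.924 to 3.36 FPKM (median 2.04) to 2.63 to 13.3 FPKM (median 7.18) (adjusted p = 1.55e-05), and MATN3 was not called (adjusted p = 0.596). The locus of MATN4 overlaps that of RBPJL.

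Glypicans moved apart. GPC6 (Entrez 418794, chromosome 1, 145753761 to 146324245) was at 0.123 to 0.527 FPKM (median 0.251) at day 22 and 1.25 to 6.05 FPKM (median 3.8) at day 42, without overlap and 12.8 times higher (1.74, adjusted p = 6.55e-08). GPC1 fell from 40.8 ± 11 FPKM (SD, n = 10) to 14.9 ± 3.55 FPKM (SD, n = 10) (adjusted p = 1.52e-06). GPC4 and its neighbour GPC3 (Entrez 770863, chromosome 4, 3823545 to 3937286) were not called, with log2 differences of -0.77 and -0.42. GPC5, also on chromosome 1, was not listed at day 22. Between day 40 and day 42 it fell, from 5.08, 6.48, 7.56, 10.6 and 16.5 FPKM in the 5 libraries of day 40 to 0.558 to 3.99 FPKM (median 1.84) (-1.86, adjusted p = 4.63e-05), while GPC6 rose. The fall of GPC5 was not called among libraries numbered 1200 to 1400, heat libraries included (2 of each day, those of day 42 both heat-stressed).

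The range of library numbers bore on these calls. At day 22, the mean of COL1A2 was 325 FPKM over the 8 libraries numbered 1500 and above and 79.2 FPKM over the 2 numbered 1400 to 1500. LUM showed 74.4 and 17.4 FPKM, LAMA2 29.2 and 8.2 FPKM, and COL4A1 47.3 and 20.3 FPKM. When only libraries numbered 1400 to 1500 were compared (6 of day 42 and 2 of day 22), a choice made after seeing the data, 16 of the 26 calls remained in the same direction. These were all 7 rises and the falls of ACAN, COL1A2, COL27A1, COL3A1, COL8A1, COL9A3, LAMA1, LUM and VCAN. The log2 difference was -3.73 for COL9A3, -3.73 for COL27A1, -1.66 for COL1A2 and 3.44 for COL4A4. COL15A1, COL18A1, COL4A1, COL5A1, DCN, GPC1, LAMA2, LAMC1, NID1 and SPARC were no longer called, and COL4A5, COL5A2, LAMA3 and LAMA5 were called higher. Of the 50 matrix genes tested, 9 were thus lower and 11 higher, beside 1119 and 1137 of all 8361 genes. With the number range added to the model over all 20 libraries, 13 of the 26 calls remained. COL3A1 (-1.03), LAMA4 (1.17) and VCAN (-1.70) were also not called then, the differences of LAMA4 and VCAN being close to those without the range, with wider standard errors (0.47 and 0.67). The other ranges held libraries of 1 day only, so the 2 range fits gave the same differences. They rest on 2 libraries of day 22 and are not separate support. The rises called in the main fit and in both range fits were those of COL17A1, COL4A4, GPC6, COL24A1, COL4A6 and MATN4. The falls were those of ACAN, COL1A2, COL27A1, COL8A1, COL9A3, LAMA1 and LUM. Of these genes, COL17A1, GPC6, COL24A1, ACAN and LAMA1 had passed the minimum of the main fit through 1 group only.

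Other genes of the matrix were read from lists written with earlier results of these data known. Between controls of day 22 and day 42, 20.2% of all genes were called lower and 12.8% higher, with a median of -0.15. Of 15 matrix receptors tested, 10 fell and 1 rose, with a median of -1.48. The largest fall was that of the integrin chain ITGB8 (-4.40), and SDC1, a syndecan of epithelia, was the gene that rose (1.96). Of 45 other matrix proteins tested, 22 fell and 6 rose (median -0.82). NOV (-4.20), TNC (-3.89) and VWA1 (-3.54) fell most, and EGFLAM (3.13), SPARCL1 (2.75), FRAS1 (2.49), NPNT (2.11), SPOCK1 (1.58) and FREM2 rose. FRAS1, FREM2 and NPNT code for basement membrane proteins of epithelia. Others read from the lists went the other way. The integrin chain ITGB4 (-1.74), NTN4 (-1.78) and AGRN (-1.08) fell, and FREM1 was not called (-0.20). Of 16 proteases and inhibitors, 6 fell, MMP2 (-2.30) and TIMP4 (-2.08) among them, and ADAMTS18 rose (1.68). Of 19 genes of collagen synthesis and cross-linking tested, 6 rose and 1 fell, with a median of 0.34. Those that rose were LEPREL1 (2.35), PCOLCE2 (1.60), P4HA2 (1.49), PPIB (1.17), ADAMTS3 (1.16) and TLL1 (1.08), enzymes or helpers that modify, fold or trim procollagen, and ADAMTS14, which trims procollagen, fell (-1.91). The collagen chaperone SERPINH1 was not called (-0.48).

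Markers of cell types moved too, in the same comparison in which 20.2% of all genes were called lower and 12.8% higher. All 6 fibroblast markers tested fell, PDGFRA (-3.02), TBX18 (-2.48) and ALDH1A2 (-2.33) among them, and so did 3 of 4 mural markers, ACTA2 (-2.54) among them. Of 6 endothelial markers, VWF and FLT1 fell and the other 4 were not called. The summed endothelial markers overlapped between the days, at 29.9 to 76.4 FPKM at day 22 and 9.58 to 62 FPKM at day 42. Of 3 cartilage and bone markers tested, HAPLN1 (-3.23) and SOX9 fell, while all 9 anterior lobe markers rose, by 7.25 (POU1F1) to 12.35 (CGA). The part of these cells in the matrix results was not tested.

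Against the other ages the same control libraries of day 42 were used, so those comparisons are not independent of the one above. Against day 21, 19 of 50 tested matrix genes were lower (background 20.1%) and 7 higher (13.2%). Against day 40, 14 of 53 were lower (background 17.6%) and 9 higher (11.2%). Here too some genes passed the minimum through 1 group only, 6 against day 21 and 5 against day 40 (ACAN, COL17A1, COL4A3, GPC6 and LAMA1). With 1 FPKM in both groups, 17 of 44 were lower and 3 higher against day 21. Against day 40 these were 12 and 6 of 48. The share of all genes under this limit was again not computed. COL9A3 was at 24.2, 25.7, 25.9, 93.9 and 101 FPKM in the 5 controls of day 40, all above day 42 (-4.39, adjusted p = 6.68e-09). COL4A4 (3.02 on the log2 scale), COL17A1 (3.09) and COL4A6 (2.30) were called higher at day 42 here too. COL4A3 was at 0.248, 0.342, 0.479, 0.483 and 0.931 FPKM at day 40 and 1.18 to 5.2 FPKM (median 2.88) at day 42, and COL4A5 at 12.1 ± 4.7 FPKM (SD, n = 5) and 31.5 ± 11.1 FPKM (SD, n = 10), and both were called higher (adjusted p = 0.000655 and 0.00237). COL1A2 was at 95.9, 143, 167, 279 and 902 FPKM at day 40. Its highest value and the highest of COL24A1 (4.89 FPKM), COL22A1 (3.62) and COL9A1 (3.91) came from library 1578, the one with bone transcripts. Without it, the log2 difference of COL1A2 went from -3.33 to -2.84 and that of COL24A1 from 1.35 to 1.68, and both were still called. Controls of day 42 shared no number range with those of day 21 or 40. With heat libraries included, 2 libraries of each day were numbered 1200 to 1400. Both of day 42 were heat-stressed and both of day 21 controls, while day 40 held 1 of each. Age and heat thus cannot be told apart against day 21, and no day 42 control was included against day 40. Among these libraries, 18 of 26 calls against day 21 and 19 of 23 against day 40 remained, of 23 and 25 made. Over all genes, 1019 of 8460 were then lower and 1445 higher against day 21, and 1036 of 8651 and 1553 against day 40. COL15A1, COL18A1, COL3A1, COL4A1, COL5A1, DCN, GPC5 and LAMA2 were lost against day 21. Against day 40, COL18A1, GPC1, GPC5 and SPARC were lost.

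Between neighbouring ages up to day 40, few matrix genes were called. From day 21 to day 22, 0 of 44 tested genes were called by limma, 2 had an unadjusted p under 0.05, and 0.0643% of all genes were called. From day 22 to day 26, 8 of 46 fell, or 17.4% against a background of 9.31%, and 0 rose. They were COL18A1, COL9A3, LAMB1, VCAN, FN1, COL8A1, COL5A2 and ACAN. COL18A1, the precursor of endostatin in vessel basement membranes, was at 11.4 to 68.1 FPKM (median 42.5) at day 22 and at 3.99, 5.77, 8.13, 13.3, 14.2 and 15 FPKM in the 6 controls of day 26 (-1.90, adjusted p = 0.000729). VCAN was at 5.85, 6.29, 6.3, 9.84, 11.1 and 18.4 FPKM (-1.26, adjusted p = 0.000334), and COL8A1 at 12.5, 14.6, 16.4, 16.7, 20.3 and 24.6 FPKM (-1.09, adjusted p = 0.00161). The median over all genes was -0.35 in this comparison. After scaling each library to its median gene, 2 of the 8 calls, COL18A1 and COL9A3, remained, and all genes then split into 4.89% higher and 3.01% lower. Day 26 controls also carried more transcripts of skeletal muscle, with ACTA1 at 8.5 to 874 FPKM, against at most 2.87 FPKM at day 22, and the part of this in the calls was not tested. From day 26 to day 32, 0 of 50 matrix genes were called by limma, with 6 at an unadjusted p under 0.05 and 0.835% of all genes called. From day 32 to day 40, COL27A1 alone of 51 was called, and it rose from 10.8, 12.1, 16.4, 22.5, 24.6 and 27.1 FPKM to 28.8, 35.9, 36.4, 55.5 and 62 FPKM (1.19, adjusted p = 0.0204), where 2.28% of all genes were called higher. This call ended without library 1579 (adjusted p = 0.0565), where GPC5 was called higher (1.03, adjusted p = 0.0467). It also ended after scaling to the median gene (log2 difference 0.97) and with the number range in the model (adjusted p = 0.666). With heat libraries added, COL27A1 was not called, whereas COL5A2, COL9A3, LAMA1 and LAMA5 were called higher.

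Heat stress was asked about at 5 ages, against controls of the same day. No matrix gene was called at any of them by limma, here without a minimum fold, nor under any alternative setting. In order of age, 46, 48, 51, 49 and 54 genes were tested, of which 1, 6, 1, 2 and 6 had an unadjusted p under 0.05. Over all genes, 0.133% were called at day 22, 0.584% at day 26 and 0% at the other days. At day 22, LAMA4 had the smallest p, with 9.06 to 18 FPKM (median 11.3) in controls and 4.83 to 15.9 FPKM (median 9.08) under heat (-0.34, adjusted p = 0.969). At day 26, COL6A1 was at 9.71, 10.6, 11.8, 13, 13.2 and 14.5 FPKM in controls and 3.9, 5.35, 6.7, 8.00 and 12.6 FPKM under heat (-0.74, adjusted p = 0.203). COL5A1 and COL3A1 followed it with -0.93 and -0.87. The muscle transcript ACTA1 was at 8.5 to 874 FPKM in these controls and 0.419 to 3.60 FPKM under heat. These 2 groups shared only the library numbers of 1500 and above, with 3 controls and 2 heat-stressed birds. The part of either in the differences was not tested. At day 40, COL13A1, a transmembrane collagen, was at 3.22, 3.41, 3.45, 3.99 and 4.78 FPKM in controls and 1.36, 1.68, 1.79, 2.84 and 3.83 FPKM under heat (-0.57, adjusted p = 0.934).

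At day 32, LAMA1 was at 1.85, 2.52, 5.09, 6.55, 7.72 and 7.73 FPKM in controls and at 1.01, 1.55, 1.59, 1.61, 1.71 and 1.84 FPKM in heat-stressed birds. Every heat-stressed library was below every control, although the highest of them and the lowest control differed by little, and 0.272% of all genes were separated in this way. With TPM or after scaling to the median gene, no matrix gene was separated in this way. The log2 difference of LAMA1 was -1.17 ± 0.27 with an unadjusted p of 0.000773 and an adjusted p of 0.746, so it did not pass over all genes. At the other days LAMA1 means of controls and heat-stressed birds were 8.48 and 8.44 FPKM (day 22), 4.31 and 5.25 FPKM (day 26) and 9.33 and 10.7 FPKM (day 40). At day 42, where LAMA1 lay below the minimum, controls were at 0.0529 to 2.04 FPKM (median 0.419) and heat-stressed birds at 0 to 2.07 FPKM (median 0.366, 1 library at 0). At day 42, LAMC3, a gamma chain, had the smallest p. It was at 6.83 to 20.3 FPKM (median 13.8) in the 10 controls and 1.27 to 16.7 FPKM (median 6.13) in the 17 heat-stressed birds (-1.02, unadjusted p = 0.00179, adjusted p = 0.999). Of the 54 genes tested at day 42, 38 were below their controls, with a median of -0.17 beside -0.02 over all genes. Within the libraries numbered below 1100 this turned, with 27 above and 25 below and a median of 0.08 (0.13 over all genes), whereas among those numbered 1400 to 1500 there were 18 above and 36 below, with a median of -0.24. The heat effects of days 22 and 42 were compared with each other for 50 genes, and 0 differed by limma, with 2 at an unadjusted p under 0.05.

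**Figure D5:**
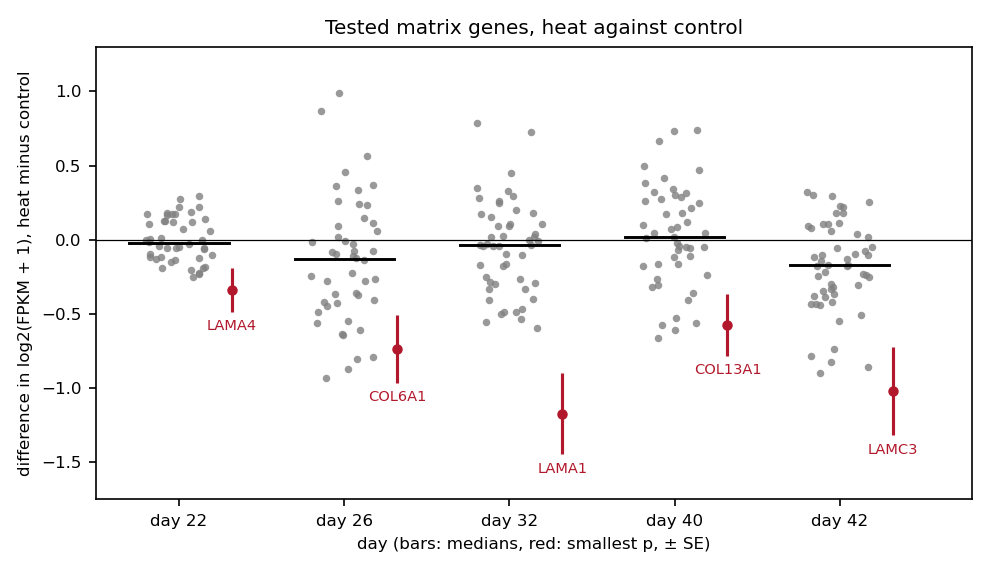
Difference in log2(FPKM + 1) between heat-stressed and control glands for each tested matrix gene (grey points) at 5 days, with bars at the medians and the gene of smallest p in red with its standard error. No point is called, and the medians lie between -0.17 at day 42 and 0.02 at day 40.

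The genes whose products join in 1 molecule were correlated across control libraries of days 21, 22 and 42, in 17 relations on the log2(FPKM + 1) scale. COL4A1 and COL4A2 went together at day 22, with a Pearson r of 0.95 and a Spearman rho of 0.90 (permutation p = 7e-05 and 0.00085, adjusted 0.00119 and 0.0144, n = 10). The r was 0.96 over the 8 libraries numbered 1500 and above. Leaving out the 2 libraries farthest from the median of COL4A1 gave the same 8 libraries, so it is not a separate check. At day 42 the relation did not pass (r = 0.13, rho = -0.03, permutation p = 0.735 and 0.946, adjusted 0.939 and 0.946). The difference between the days was not tested. COL6A1 and COL6A2, neighbours on chromosome 7, were related at day 22 (r = 0.97, rho = 0.85, permutation p = 0.00033 and 0.00273, adjusted 0.0028 and 0.0232). They were also related at day 21 (r = 0.76, rho = 0.68, permutation p = 0.00108 and 0.00628, adjusted 0.00612 and 0.0356, n = 15). Without the 2 farthest libraries these values of r were 0.94 and 0.54, and within the range of 1500 and above 0.98 and 0.70. At day 21, COL4A1 and COL4A2 passed by rank only (rho = 0.66, permutation p = 0.00916, adjusted 0.0389, with r = 0.52, permutation p = 0.0444, adjusted 0.11). After scaling to the median gene, both rank relations of day 21, that of COL4A1 with COL4A2 and that of COL6A1 with COL6A2, no longer passed (adjusted permutation p = 0.0743 for each). The Pearson r of the other 14 relations did not pass the adjustment, and those of COL9A2 with COL9A3 were -0.44, -0.00 and -0.59 at days 21, 22 and 42, the last of which turned to 0.28 after that scaling.

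Several matrix genes are neighbours in the genome, with gaps below 150000 bases on galGal4. LUM and DCN both fell. COL6A1 and COL6A2, 20261 bases apart, had log2 differences of -0.58 and -0.73, below the 2-fold minimum. COL3A1 fell and COL5A2, 6867 bases away on chromosome 7, did not (-2.33 against -0.03 on the log2 scale). COL18A1, 58292 bases from COL6A1, was called lower, whereas COL6A1 was not (-1.51 and -0.58). COL4A5 and COL4A6, 24005 bases apart, were both above their day 22 means, by 0.52 and 1.32. Differences between neighbours were not tested.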

How the data were processed

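Whole pituitary RNA of single birds was sequenced on an Illumina HiSeq instrument after stranded library preparation. The authors aligned reads with TopHat and Bowtie to the chicken genome version 4 (galGal4) and computed FPKM with Cufflinks, per the labels and the study's methods, and the tool versions and the strand setting of the counting are not given in the sources used here. The deposited FPKM tables, 1 per day, were used as they stand and joined by gene symbol, so that comparisons between days rest on the FPKM scale shared by separately made tables. Columns were matched to labelled samples by name. No labelled sample fitted 3 columns, which were not used, and 2 of the 100 labelled samples (both heat-stressed, day 42) had no matching column. The day 42 table had 16 missing values, with 0 among the matrix genes.

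Values were tested as log2(FPKM + 1) with limma 3.58.1 (R 4.3.3, trend on mean level), keeping genes that averaged 1 FPKM or more in the libraries of a comparison, and p-values were adjusted over all of them by the Benjamini-Hochberg method. Calls needed an adjusted p under 0.05 and, between days, a 2-fold change. Fold changes on this scale understate those of low genes, and ratios are ratios of mean FPKM. The step sizes of low values were used for relative depth. Correlations used 100000 permutations, two-sided, in scipy 1.17.1. The fits were tested on simulated data. Alternatives were a pseudocount of 0.1, no filter, scaling to the median gene, TPM, no minimum fold, added heat libraries, the number range of a library in the model, and leaving out single libraries. Comparison within 1 range of library numbers, and leaving out each library of the day 22 and day 42 comparison, were added after seeing the data.

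This group of genes was taken up, and the lists were written, with earlier results of these data known, although the rule itself uses symbols only. Genes were named in full when the study names them, when they had the highest control mean of their class, when they were among the 8 largest rises or falls from day 22 to day 42, when they had the smallest p in a heat comparison, or when they were among the 3 smallest adjusted p in each direction of another comparison. Other genes given with values were chosen after their values were seen, and 1 gene of the rule is not reported here. Replicates are single birds, and no pen or hatch is given.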

Additional observations from a re-analysis of the deposited data

Results flagged for a closer look

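Single libraries far from the others of their group were looked for in groups of up to 10 libraries, by the gap of the highest or lowest value to its neighbour relative to the range of the group. Over 241 pairs of a named gene and a group, 34 such values were found, where chance gives about 1 in 20 groups. Several came from the same libraries.

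The day 32 control library 1315 was lowest for COL1A1 (449 FPKM), COL1A2 (21.5 FPKM), DCN (24.3 FPKM), LUM (4.82 FPKM) and SPARC (584 FPKM), all of them genes of fibrous tissue or collagen binding. The day 42 control library 1012 was lowest for DCN (3.84 FPKM), GPC4 (4.18 FPKM), LAMA4 (4.71 FPKM) and COL4A6 (7.57 FPKM). This library also had fewer genes at 1 FPKM or more (6709) than the other controls of day 42 (8865 to 9481), and its FPKM summed to 281671. The day 32 control library 1309 was highest for COL4A4 (7.18 FPKM) and COL17A1 (1.68 FPKM).

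Among heat-stressed birds of day 32, library 1307 was lowest for COL1A2 (58.9 FPKM), COL18A1 (9.53 FPKM), COL8A2 (8.84 FPKM) and LAMA1 (1.01 FPKM). Library 1276 of the same group was lowest for ACAN (0.620 FPKM) and GPC4 (19.8 FPKM) and highest for NID1 (23.0 FPKM). Among those of day 26, library 1312 was highest for COL8A1 (31.4 FPKM) and COL8A2 (54.0 FPKM), and library 1511 was highest for VCAN (28.2 FPKM) and COL24A1 (0.588 FPKM) and lowest for SPARC (310.0 FPKM). The day 40 heat library 1576 was highest for COL6A1 (23.3 FPKM).

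Of the day 26 controls, library 845 was highest for COL24A1 (2.38 FPKM) and lowest for COL4A6 (1.55 FPKM) and COL8A2 (11.3 FPKM), and library 847 was highest for COL4A1 (33.2 FPKM). The day 22 control library 1552 was lowest for ACAN (1.36 FPKM) and COL8A2 (4.65 FPKM). In controls of day 40, COL11A1 was lowest in library 1579 (10.8 FPKM), MATN4 lowest in library 1279 (1.03 FPKM) and GPC3 highest in library 1577 (16.9 FPKM). COL9A3 at day 42 was highest in control library 1420 (2.85 FPKM).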

How the results depend on the processing

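No paired analysis was possible because the compared groups share no replicate numbers. The 26 calls between day 22 and day 42 went to 17 with the number range of the libraries in the model, and stayed at 24 to 27 when single libraries were left out (LAMA4 and COL5A1 fell under the 2-fold minimum without library 1419, and COL5A1 without 1552, while LAMB1 was called lower without any 1 of 6 libraries and COL8A2 without 1552). LAMA2 turned from -1.71 to 0.065 on the log2 scale with this term (adjusted p = 0.971). Among libraries numbered 1400 to 1500 it is the same difference (adjusted p = 0.958). The number range in the model also left 6 of 11 calls among matrix receptors and 18 of 28 among other matrix proteins. Among libraries numbered 1400 to 1500 there were 11 calls in collagen synthesis (7 before), 4 among proteases (7 before) and 6 among receptors, and without a minimum fold 11 among proteases. The 8 falls from day 22 to day 26 became 2 after scaling to the median gene and 19 without a minimum fold, and were 7 to 9 with single day 26 libraries left out. Between day 32 and day 40 the single call became 0 after scaling to the median gene and 0 with the number range. There were 3 calls with TPM and 2 without a minimum fold. With heat libraries added, 4 other genes were called and COL27A1 was not. Calls between day 40 and day 42 numbered 21 to 23 with single day 40 libraries left out (none of day 42 was), and heat calls were 0 in every setting run. The cause of these shifts was not tested. Depth could be compared within a table only, so its limit on low genes was not compared between days.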

Other observations

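The day 32 control library 1309 had the anterior lobe transcripts CGA (1507 FPKM), TSHB (43.7 FPKM) and LHX3 (50.6 FPKM) together with 7.18 FPKM of COL4A4 and 1.68 FPKM of COL17A1, genes that were otherwise high at day 42. The day 40 control library 1578, with its bone transcripts, also had 129 FPKM of MMP13, a collagenase, against at most 0.310 FPKM in the other controls of that day.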
